A study of Mus musculus with 6 samples.

Results

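The nuclear receptor genes outside Pparg and the clock receptors were followed in 6 male mice, 10 weeks old and of mixed C57BL6;SJL background, from which the epididymal white fat was taken. Members were taken from a list of 40 receptor genes, and a probe set counted when the platform annotation paired it with that symbol alone. This gave 106 of 45101 probe sets and 39 of 18194 genes. Nr1h2, which encodes LXRβ, had no such probe set. The 3 transgenic mice carried aP2-nSrebp1c, which expresses the nuclear form of the lipogenic transcription factor SREBP-1c from the aP2 (Fabp4) promoter, active in fat cells. The 3 control mice were wild type and litter-matched. The labels describe the transgenic animals as lipodystrophic and do not say how many transgenic lines were used. Each mouse was measured on an Affymetrix array of its own, and the number of arrays limits the precision of all values.

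Nuclear receptors are transcription factors that bind DNA through a zinc finger domain and, in many cases, change their activity when a small lipophilic molecule binds them. Retinoid X receptors (RXRs) form heterodimers with the receptors for oxysterols (LXR), fatty acids (PPAR), thyroid hormone, retinoic acid, vitamin D and bile acids. Steroid receptors such as the glucocorticoid receptor act mainly as homodimers, and the orphan receptors of the family have no established circulating hormone. In white fat, PPARs, LXRα, the glucocorticoid receptor and the oestrogen receptor are known regulators of lipid storage, lipogenesis and the formation of fat cells.

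In these data 19 of the 39 measured receptors were expressed, taken as a mean signal over 100 across the 6 arrays in the brightest probe set of the gene. No receptor was called on that probe set when all 6 arrays were compared. Without transgenic replicate 2, the signals of Nr1h3 (LXRα) and Ppard (PPARδ) rose 2.0-fold and 1.73-fold in transgenic fat, and those of Esr1 (oestrogen receptor α) and Nr3c1 (glucocorticoid receptor) fell 2.02-fold and 1.57-fold. These calls were 6.45% of the 31 tested receptors in each direction, near the 8.04% and 7.33% of all genes called higher and lower. Nr1h3 was instead lower (log2 fold change −0.30 or −0.48) when transgenic replicate 1 or 3 was the array left out. The single receptor probe set called over all 6 arrays was a dimmer one of the thyroid hormone receptor gene Thra. It fell 5.86-fold there and 5.32-fold without transgenic replicate 2. Its call was lost without any single wild type replicate (limma, adjusted p = 0.129 to 0.138). The brightest probe set of Thra was not called (log2 fold change −0.26, adjusted p = 0.608). Of genes listed as known targets of PPARα or PPARδ, 7 of 15 tested rose over 6 arrays, as did 4 of 12 listed as targets of LXR, where 2.23% of all genes were called higher. Without any single wild type replicate each of these counts fell to 2, and without transgenic replicate 3 they were 3 and 2.

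The promoters of 3 receptors are shown because the transgene product is a DNA-binding factor and because Nr1h3 and Ppard were the members called higher without transgenic replicate 2, while Rxra encodes the partner of both. The sequences run 5′ to 3′ from 250 bases before to 50 after a transcription start in RefSeq (build GRCm38.p6), and capitals mark the nuclear receptor half-site AGGTCA on either strand. Nr1h3 lies at chr2:91195067-91195366 on the minus strand, Ppard at chr17:28232504-28232803 on the plus strand, and the second listed start of Rxra at chr2:27709042-27709341 on the plus strand.
Nr1h3: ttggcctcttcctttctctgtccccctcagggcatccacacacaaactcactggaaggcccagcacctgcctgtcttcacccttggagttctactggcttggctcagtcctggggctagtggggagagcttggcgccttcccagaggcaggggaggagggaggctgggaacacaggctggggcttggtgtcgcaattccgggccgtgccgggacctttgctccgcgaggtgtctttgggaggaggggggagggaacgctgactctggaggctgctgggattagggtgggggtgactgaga
Ppard: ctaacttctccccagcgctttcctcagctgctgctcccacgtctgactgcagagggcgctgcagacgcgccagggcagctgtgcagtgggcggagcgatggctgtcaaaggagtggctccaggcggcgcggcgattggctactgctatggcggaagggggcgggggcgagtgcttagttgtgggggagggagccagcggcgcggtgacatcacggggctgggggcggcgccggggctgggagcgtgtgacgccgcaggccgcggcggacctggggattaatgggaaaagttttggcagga
Rxra: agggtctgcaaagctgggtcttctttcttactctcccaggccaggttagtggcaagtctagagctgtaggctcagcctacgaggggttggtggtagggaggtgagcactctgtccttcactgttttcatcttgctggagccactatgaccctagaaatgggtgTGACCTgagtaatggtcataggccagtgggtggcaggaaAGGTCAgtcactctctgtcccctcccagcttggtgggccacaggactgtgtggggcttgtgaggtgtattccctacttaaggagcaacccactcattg

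The window at the second start of Rxra, shown because it holds the half-site, had AGGTCA at 2 places, on the minus strand at position -87 and on the plus strand at position -48 from the start. The window at the first listed start of Rxra held none of the motifs searched. Those of Nr1h3, at both of its listed starts, and of Ppard held no AGGTCA, no E-box CACGTG and no sterol regulatory element TCACCCCAC, all searched on both strands. None of these 3 motifs contains another. Among 32851 promoters of the same length, 16.3% held the half-site, 7.15% the E-box and 0.551% the sterol regulatory element. The table holds 56 promoters of 37 members, of which 9 held the half-site, 6 the E-box and 0 the sterol regulatory element, so the share with a half-site was near that of all promoters. A match is a description of letters and not of binding, and the lack of one says only that these letters are not in this window.

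Values are MAS5 signals, linear intensities in arbitrary units that are not comparable in size between probe sets. Fold changes and their standard errors (SE) are on the scale of log2(signal + 16), which understates the change of dim genes. The adjusted p is that of limma over 27023 tested probe sets, with a threshold of 0.05. A gene was represented by its brightest tested probe set.

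The array of transgenic replicate 2 stood apart before any comparison. Its β-actin control read 122 times as bright at the 3′ end as at the 5′ end, and its Gapdh control 55.9 times, against highest ratios of 1.81 and 1.22 on the other 5 arrays. The median signal was 37.7 on this array and 53.4 to 65.4 on the others. Of the 65 tested probe sets of the receptors, 24 were at least 1 log2 unit lower on it than the mean of transgenic replicates 1 and 3 (36.9%, against 28.0% of all tested probe sets). On each of the other arrays between 0 and 4 were that far below the other arrays of their group. The values of the receptors are therefore given with and without this array.

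The tissue label was checked against its defining markers. Adipoq, which encodes adiponectin, had a mean signal of 11293 ± 794 in wild type and 5979 ± 1177 in transgenic fat (SD, n = 3 each), and no adipocyte marker measured was below 16 in both groups. Markers of testis and epididymis summed to 73.9 to 161.7 in wild type and 135.6 to 192.6 in transgenic fat over 7 genes on the array. Of those, Adam7, Lcn5, Tnp1 and Ldhc were below 16 in both groups.

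**Figure D1:**
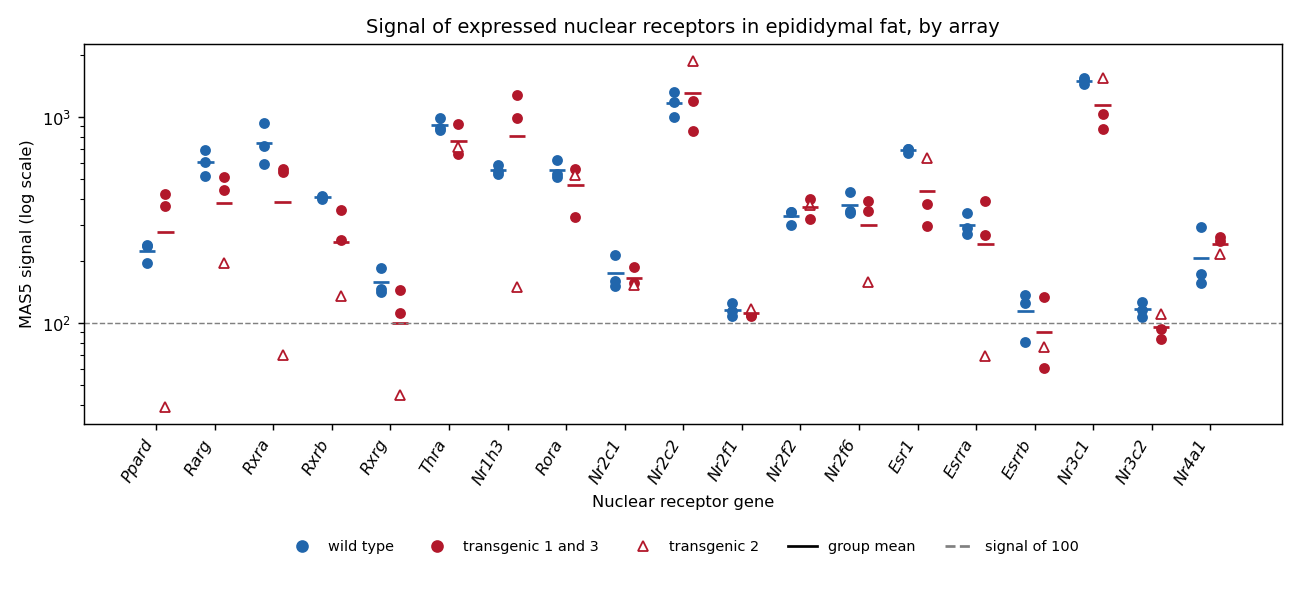
MAS5 signal on a log scale for the brightest tested probe set of each of the 19 receptors with a mean signal over 100. Blue points are the 3 wild type mice, red points transgenic replicates 1 and 3, open triangles transgenic replicate 2, and short bars the group means; on Nr1h3 and Ppard the triangle lies below all other points while replicates 1 and 3 lie above all wild type points.

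By function, the expressed receptors comprised the RXR genes Rxra, Rxrb and Rxrg, the lipid sensor genes Nr1h3 and Ppard, the thyroid hormone and retinoic acid receptor genes Thra and Rarg, the steroid receptor genes Esr1, Nr3c1 and Nr3c2, the oestrogen-related receptor genes Esrra and Esrrb, and the orphan receptor genes Rora, Nr2c1, Nr2c2, Nr2f1, Nr2f2, Nr2f6 and Nr4a1. Of these 19 genes, 13 had a probe set over 100 on every array. Counted by group means, 19 receptors were over 100 in wild type and 17 in transgenic fat. The members nearest the threshold were Esrrb (mean signal 102) and Nr3c2 (106) above it, and Nr4a2 (81.8) and Rarb (80.6) below it. Esrrb and Nr3c2 were also the receptors over 100 in the wild type mean but not in the transgenic mean.

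The 20 other measured receptors were dimmer. Of these, 12 had a tested probe set and mean signals from 39.8 for Nr1h4, the bile acid receptor gene FXR, to 81.8 for Nr4a2. They were Ppara, Rara, Rarb, Thrb, Nr1h4, Esrrg, Pgr, Nr4a2, Nr4a3, Nr5a2, Nr6a1 and Hnf4a. The other 8 had no probe set among those tested: the vitamin D receptor gene Vdr, the xenobiotic receptor genes Nr1i2 and Nr1i3, Rorb, Esr2, Nr5a1, Nr0b1 and Nr0b2. Their brightest probe sets had mean signals between 5.08 for Nr1i3 and 26.8 for Rorb.

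Transgenic fat was set against wild type fat to ask which receptor RNAs differ when nuclear SREBP-1c is present in fat cells. Over all 6 arrays, 0 of the 31 receptors with a tested probe set were called higher and 0 lower by limma, where 2.23% and 1.54% of all 13112 genes were called. At an unadjusted p under 0.05 the count was also 0, against 18.4% of all genes. Of the 31 log2 fold changes 22 were below 0, with a median of −0.25 against −0.04 for all genes. The groups did not overlap for 5 receptors, all lower in transgenic fat. This was 16.1% of the receptors, beside 16.3% of all genes that were lower without overlap. The count higher without overlap was 0, against 14.1% of all genes.

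Without transgenic replicate 2 the median SE of the receptors was 0.22 in place of 0.32, and 2 receptors were called higher and 2 lower. Each count was 6.45% of the 31 receptors, where 8.04% of all genes were called higher and 7.33% lower, so the share of receptors called was near the background. The median log2 fold change was then −0.12 for the receptors and 0.02 for all genes. The range over the receptors ran from −1.01 for Esr1 to 1.0 for Nr1h3. The same 4 receptors were called when the 5 arrays were also quantile normalized.

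**Figure D2:**
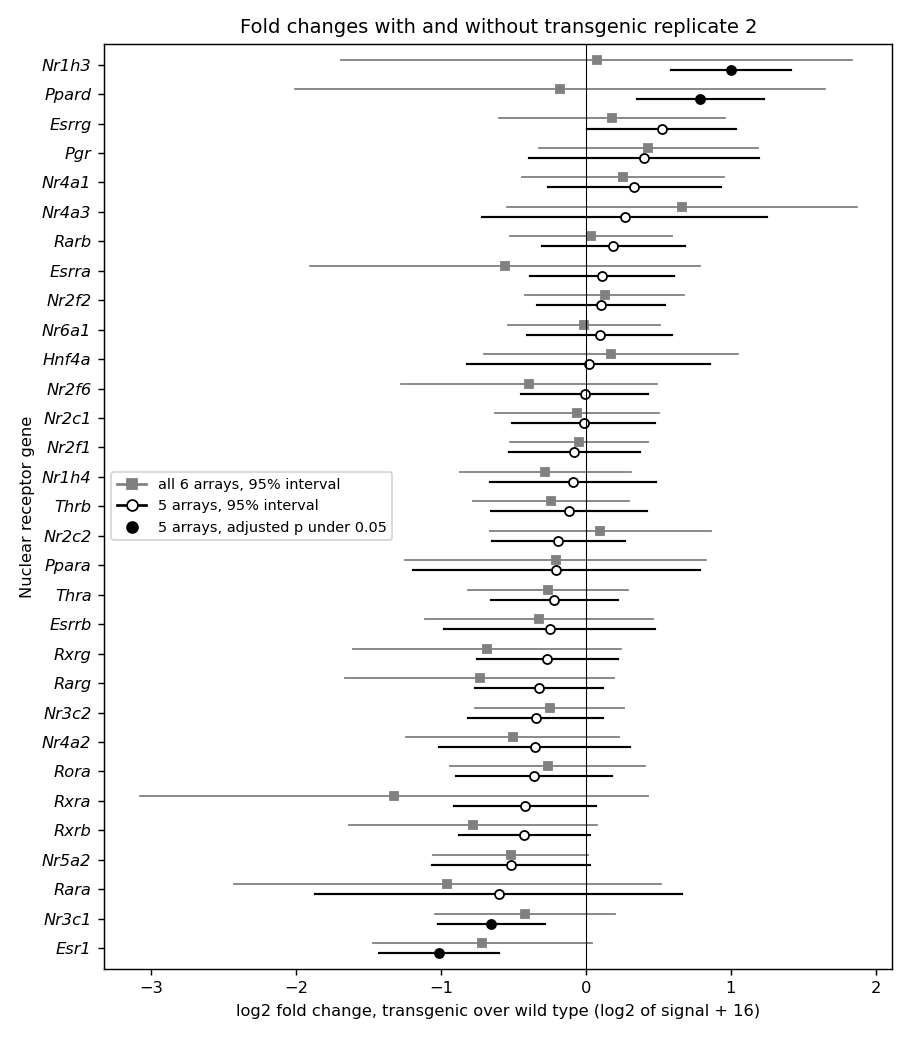
Log2 fold change of transgenic over wild type fat for the 31 tested receptors, with 95% intervals, over all 6 arrays (grey squares) and without transgenic replicate 2 (circles, filled where the adjusted p is under 0.05). Filled circles mark Nr1h3 and Ppard to the right of 0 and Esr1 and Nr3c1 to the left; the grey interval of each of these 4 spans 0.

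Nr1h3 encodes LXRα, the oxysterol receptor that induces Srebf1 and cholesterol efflux genes. Its signal was 583, 531 and 547 in wild type replicates 1 to 3 and 988, 149.9 and 1278 in transgenic replicates 1 to 3. Transgenic replicates 1 and 3 lay above all wild type mice, and replicate 2 lay below them. The log2 fold change was 0.07 ± 0.74 SE (adjusted p = 0.969, 95% interval −1.69 to 1.84) over 6 arrays and 1.0 ± 0.18 SE (adjusted p = 0.00645) without replicate 2. Leaving out transgenic replicate 1 or 3 instead turned the direction, to −0.30 and −0.48. The array holds 1 probe set paired with this gene alone, so no other could be compared.

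Ppard encodes PPARδ, a fatty acid sensor that promotes fatty acid oxidation. It read 238, 238 and 195 in the wild type mice and 369, 39.1 and 425 in the transgenic mice. The pattern over arrays was that of Nr1h3: replicates 1 and 3 above, replicate 2 below all wild type values. The log2 fold change was −0.18 ± 0.77 SE (adjusted p = 0.923, interval −2.01 to 1.65), and 0.79 ± 0.19 SE (adjusted p = 0.0271) without replicate 2. Its other probe set was between 2.0 and 4.9 on all arrays. Ppara, which encodes the PPAR of liver and brown fat, had mean signals of 80.6 ± 46.3 in wild type and 63.4 ± 25.7 in transgenic fat (SD, n = 3 each) and was not called in either comparison. A dimmer probe set of Ppara, 1439675_at, was lower in every transgenic mouse (50.8, 73.0 and 77.2 against 27.9, 1.7 and 30.7) but was not called either (−1.31 ± 0.41 SE, adjusted p = 0.174).

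The rise of Nr1h3 without replicate 2 stood beside a rise of macrophage markers, cells that also express LXRα. Of 14 markers, Clec7a was called higher over 6 arrays (0 without any wild type replicate or transgenic replicate 3) and 8 higher and 1 lower without replicate 2. Their summed signal was 19492 to 22997 in wild type and 32606 to 44467 in transgenic fat, and 0 of the 14 were below 16 in both groups. The lowest transgenic sum was that of replicate 2. Without that array 8.04% of all genes were called higher. The part of macrophage number in the signal of Nr1h3 was not tested. In whole tissue, more cells of a type and more RNA per cell cannot be told apart, and likewise fewer cells and less RNA.

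The RXR genes, whose products are the shared partners, had lower means in transgenic fat but were not called. Rxra read 723, 589 and 941 in wild type and 538, 69.7 and 558 in transgenic mice, and Rxrb 399, 408 and 415 against 253, 135 and 355. The groups did not overlap on the brightest probe set of either gene. They overlapped on a second tested probe set of Rxra, 1425762_a_at, at 245.9, 247.3 and 622.4 against 309.7, 78 and 169.7. That one was not called either (−0.98 ± 0.55 SE, adjusted p = 0.435). Over 6 arrays the log2 fold change of the brightest Rxra probe set was −1.32 ± 0.74 SE (adjusted p = 0.431). It was −0.42 ± 0.22 SE when replicate 2 was left out (adjusted p = 0.265). Rxrb went from −0.78 ± 0.36 SE (adjusted p = 0.348) to −0.42 ± 0.20 SE (adjusted p = 0.221) with the same array left out. Rxrg, the form enriched in muscle and brain, overlapped between groups, with means of 157.8 ± 23.1 and 100.6 ± 51.1 (SD, n = 3 each). Without replicate 2 the 95% interval of Rxra ran from −0.91 to 0.07 and that of Rxrb from −0.88 to 0.03.

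The receptors of retinoic acid and thyroid hormone gave 1 call, in 1 of 3 probe sets of Thra. The gene for thyroid hormone receptor α had its brightest probe set at 870, 991 and 883 in wild type and 663, 717 and 926 in transgenic mice, which overlapped (log2 fold change −0.26 ± 0.23 SE, adjusted p = 0.608). A dimmer probe set, 1443952_at, read 292, 279.5 and 465 in wild type against 92.7, 33.6 and 24.4 in transgenic mice. Every transgenic mouse was below every wild type mouse on it, replicate 2 included. This was the single receptor probe set called over all 6 arrays (−2.55 ± 0.42 SE, adjusted p = 0.0291), where 2.97% of all probe sets were called. The third, 1426997_at, was lower without overlap but not called (−1.56 ± 0.58 SE, adjusted p = 0.251).

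The call of the Thra probe set was lost when wild type replicate 1, 2 or 3 was left out (adjusted p = 0.129, 0.129 and 0.138) or transgenic replicate 3 (0.0984), and was kept without transgenic replicates 1 and 2. Thra makes several transcript forms, and its 3′ end overlaps the gene of Nr1d1 on the opposite strand. No source used here says which form each probe set reads, and the 3 tested probe sets were all lower on average but by different amounts. Their mean gave a log2 fold change of −1.46 (adjusted p = 0.0550), against −0.26 on the brightest. Thrb, for thyroid hormone receptor β, was dim in both groups (62.1 ± 9.35 and 50.3 ± 9.68, SD, n = 3 each).

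Rarg, which encodes retinoic acid receptor γ, read 694, 518 and 602 in wild type and 513, 195 and 443 in transgenic mice. The groups did not overlap on this brightest probe set, but transgenic replicate 1 lay just under the lowest wild type value. The log2 fold change was −0.73 ± 0.39 SE (adjusted p = 0.414) over 6 arrays, and −0.32 ± 0.19 SE (adjusted p = 0.343) without replicate 2. A dimmer tested probe set, 1419416_a_at, overlapped between groups, at 8.3, 116.3 and 220.7 against 211.9, 13.7 and 55.6. It had −0.22 ± 1.01 SE (adjusted p = 0.928) over 6 arrays and 0.48 ± 0.83 SE (adjusted p = 0.769) without replicate 2. Rara and Rarb, for the α and β forms, had mean signals under 100 and overlapping groups.

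Among steroid receptors, Esr1 encodes oestrogen receptor α, which restrains the growth of fat depots. It read 702, 699 and 672 in wild type and 297, 636 and 376 in transgenic mice. All transgenic values were lower, with replicate 2 nearest to wild type. The log2 fold change was −0.71 ± 0.32 SE (adjusted p = 0.332) over 6 arrays and −1.01 ± 0.18 SE (adjusted p = 0.00619) without replicate 2. With weights fitted to each array it was −0.92 (adjusted p = 0.0116). The 2 other tested probe sets of Esr1 were dimmer, overlapped between groups and were not called in either comparison. Esr2, for oestrogen receptor β, was between 5.7 and 14.8 on all arrays.

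Nr3c1 encodes the glucocorticoid receptor, which fat cells need for part of their differentiation and for stress-induced lipolysis. Its brightest probe set read 1552, 1441 and 1505 in wild type and 871, 1542 and 1034 in transgenic mice. Transgenic replicates 1 and 3 lay below all wild type mice and replicate 2 among them. The log2 fold change was −0.42 ± 0.26 SE (adjusted p = 0.480) over 6 arrays, and −0.65 ± 0.16 SE (adjusted p = 0.0293) without replicate 2. A second bright probe set, 1421867_at, did not overlap between groups, at 1392, 1464 and 1187 against 543, 979.6 and 695. It had −0.89 ± 0.28 SE (adjusted p = 0.174) over 6 arrays and −1.11 ± 0.19 SE (adjusted p = 0.00420) without replicate 2.

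A further probe set of Nr3c1, 1457635_s_at, had −0.68 ± 0.19 SE (adjusted p = 0.0431) without replicate 2, so that 3 of 5 tested probe sets of the gene were called lower there. The remaining 2 were dimmer and overlapped between groups, with 44.5 to 280.3 and 24.0 to 156.6 in wild type mice. Nr3c2, the mineralocorticoid receptor gene, read 116.0, 106.6 and 127 against 83.3, 110.7 and 93.5, which overlapped (−0.25 ± 0.22 SE, adjusted p = 0.594). The progesterone receptor gene Pgr was dim, with means of 36.7 ± 18.8 and 51.7 ± 2.59 (SD, n = 3 each).

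The lower signals of Esr1 and Nr3c1 stood beside lower markers of several cell types. Of 10 adipocyte markers, 2 were called lower over 6 arrays and 6 without replicate 2, but 1 without any wild type replicate or transgenic replicate 3. Their summed signal was 83070.1 to 91029 in wild type and 42912 to 63284 in transgenic fat. Of 7 mesothelial markers, 2 and then 6 were called lower, with sums of 5239 to 5810.4 against 871 to 2111 (0 were called with any other array left out). Of 10 endothelial markers, 0 and then 6 were called lower, with sums of 11232 to 12620 against 2495 to 8110. Adipocyte progenitor markers gave overlapping sums, 23684 to 26321 against 20901 to 27062. Of these 8, 1 and then 2 were called lower, and 0 without any wild type replicate or transgenic replicate 1. In each of these lists the lowest transgenic sum was that of replicate 2. Without that array 7.33% of all genes were called lower. No marker of these lists was below 16 in both groups. The part of a changed cell makeup in the signals of Esr1 and Nr3c1 was not tested.

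The oestrogen-related receptors, which drive mitochondrial genes without a known hormone, were not called. Esrra read 341, 271 and 290 in wild type and 392, 69.1 and 268 in transgenic mice. It had −0.56 ± 0.57 SE (adjusted p = 0.651) over 6 arrays, and 0.11 ± 0.22 SE (adjusted p = 0.805) without replicate 2, with a 95% interval of −0.38 to 0.61. Esrrb overlapped between groups on its brightest probe set. Its dimmer 1436926_at was higher in every transgenic mouse (29.9, 42.3 and 46.4 against 56.9, 64.1 and 71.1) but not called (0.54 ± 0.22 SE, adjusted p = 0.299).

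Among the orphan receptors, 0 were called on their brightest probe sets in either comparison. Nr2f1, the gene of COUP-TFI, read 114.5, 108.4 and 125 in wild type and 109.9, 117.5 and 107.6 in transgenic mice. Its interval over 6 arrays was −0.53 to 0.43. Nr2c1 and Nr2c2, for the testicular receptors TR2 and TR4, overlapped between groups, Nr2c1 at −0.06 ± 0.24 SE (adjusted p = 0.915). Nr2c2 was at 0.10 ± 0.32 SE (adjusted p = 0.893) over 6 arrays, and at −0.19 when replicate 2 was left out. Nr2f6 had −0.39 ± 0.37 SE (adjusted p = 0.626), and −0.01 without replicate 2.

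Nr2f2 encodes COUP-TFII, a regulator of veins, lymphatics and fat cell precursors, and its probe sets did not move together. The brightest read 348, 298 and 347 in wild type and 399, 376 and 318 in transgenic mice, which overlapped (0.13 ± 0.23 SE, adjusted p = 0.801). Another, 1436475_at, read 106.4, 109.3 and 90.2 against 170.0, 205 and 224. On that one every transgenic mouse was higher, with 0.86 ± 0.22 SE (adjusted p = 0.110) over 6 arrays and 0.84 ± 0.21 SE (adjusted p = 0.0306) without replicate 2. Rora, for the orphan receptor RORα, had 8 tested probe sets, of which 0 were called in either comparison. Nr4a1, an immediate early receptor gene also called Nur77, read 173, 293 and 156 against 250.3, 215 and 262, which overlapped.

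Of the dim receptors, Nr5a2 (LRH-1, a regulator of bile acid and steroid synthesis) was the one whose groups did not overlap on the representative probe set. It read 104, 71.2 and 90.7 in wild type and 49.7, 56.0 and 64 in transgenic mice, with −0.52 ± 0.22 SE (adjusted p = 0.319). The interval was −1.05 to 0.02. Esrrg had 0.52 ± 0.23 SE (adjusted p = 0.183) without replicate 2, the third highest value after Nr1h3 and Ppard. Its dimmer 1455267_at, left out of the test, went the other way, at 45.2, 23.3 and 30.7 in wild type against 4.9, 13 and 15.7. With no filter that probe set had −0.85 over 6 arrays (limma, adjusted p = 0.230). A further left-out probe set of Esrrg, 1457896_at, overlapped between groups.

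**Figure D3:**
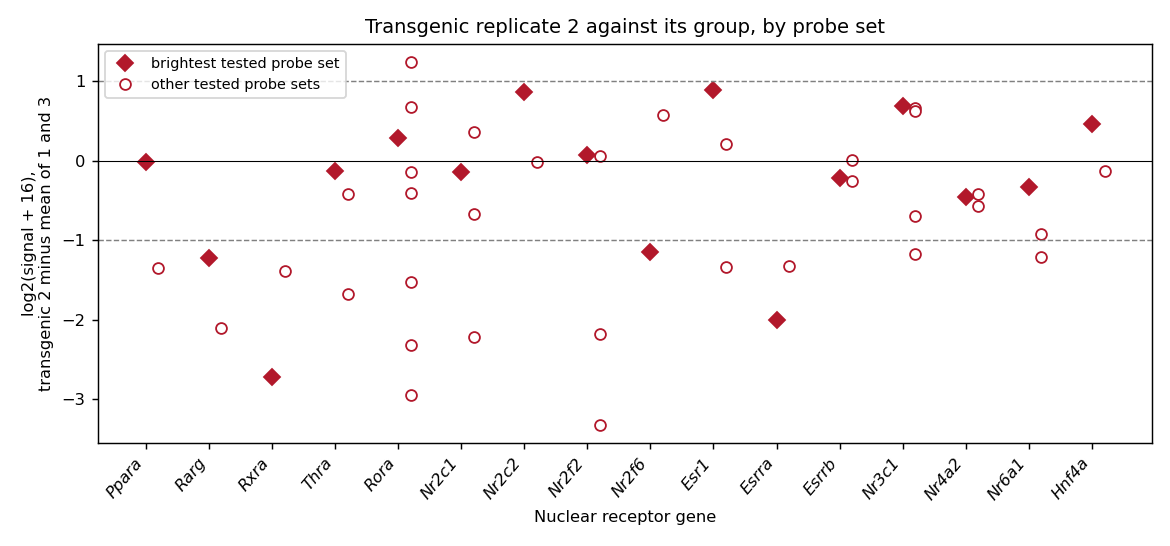
Signal of transgenic replicate 2 minus the mean of transgenic replicates 1 and 3, in log2(signal + 16), for each tested probe set of the 16 receptors that have over 1. Diamonds are the brightest tested probe set and circles the others; the probe sets of Rora run from −2.95 to 1.24 and those of Nr2f2 from −3.32 to 0.07.

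Transgenic replicate 2 did not lie apart by a common factor. On the probe sets of Rora its signal was between 0.084 and 2.43 times the mean of transgenic replicates 1 and 3. For Nr2f2 it was 1.05 times that mean on the brightest probe set and 0.062 times on 1416159_at, which reads the same gene. The brightest probe sets of 10 of the 31 receptors were at least 1 log2 unit lower on this array: Ppard, Rara, Rarg, Rxra, Rxrb, Rxrg, Nr1h3, Nr2f6, Esrra and Esrrg. On those of Nr4a3, Esr1, Nr2c2 and Nr3c1, among others, the array was instead brighter than replicates 1 and 3. It read 2.57, 1.89, 1.81 and 1.62 times the mean of replicates 1 and 3 on these. The part of RNA quality in these differences was not tested.

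**Figure D4:**
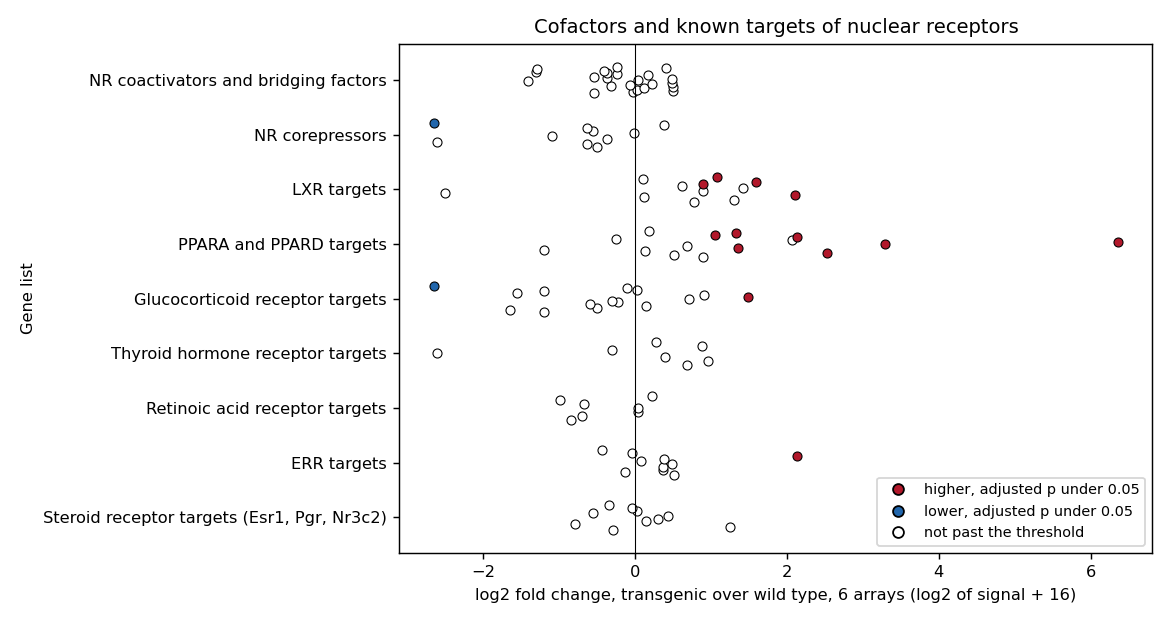
Log2 fold change over all 6 arrays of each tested gene in 9 lists of cofactors and known targets of nuclear receptors (vertical spread within a list carries no value). Filled points have an adjusted p under 0.05, red for higher and blue for lower; they number 7 among PPARA and PPARD targets and 4 among LXR targets, and 0 among the 23 coactivators.

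Cofactors carry the signal of a bound receptor to chromatin, coactivators as a rule after a ligand binds and corepressors in many but not all cases without it. Of 23 tested coactivators and bridging factors, 0 rose and 0 fell in either comparison, with median log2 fold changes of −0.07 over 6 arrays and −0.11 without replicate 2. Of 10 tested genes listed as corepressors, Zbtb16 (PLZF) fell and 9 were not called, with a median of −0.59. Zbtb16, which is also a glucocorticoid target, went from 1938 ± 397 to 296 ± 64.8 (SD, n = 3; −2.65 ± 0.28 SE, adjusted p = 0.00589), and the call was lost without wild type replicate 1 or 2 (adjusted p up to 0.0648). Without transgenic replicate 2, Nrip1 (RIP140, a corepressor of oxidative genes in fat), Tbl1x and Hr (hairless) were also lower, with −1.37, −0.79 and −2.01 (adjusted p = 0.00300, 0.0365 and 0.000833).

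Of 12 tested targets of LXR, 4 rose, 0 fell and 8 were not called, with a median log2 fold change of 0.89, where all genes had −0.04. The share of all genes called higher was 2.23% over 6 arrays and 8.04% without transgenic replicate 2. Scd2, a fatty acid desaturase gene, rose from 3442 ± 575 to 10355 ± 608 (SD, n = 3; 1.60 ± 0.17 SE, adjusted p = 0.00584). The other 3 were the apolipoprotein gene Apoc1 (2.10), the phospholipid transfer protein gene Pltp (0.89, adjusted p up to 0.140 without wild type replicate 2) and Srebf1 (1.08, up to 0.188 without wild type replicate 1). Scd2 and Srebf1 are targets of SREBP-1 as well as of LXR, and no source used here says whether transgene RNA adds to the Srebf1 signal. With 1 array left out, between 2 and 7 of the 12 were higher, the most without transgenic replicate 2, when the cholesterol exporter genes Abca1 (0.69, adjusted p = 0.0110) and Abcg1 (1.03, adjusted p = 0.0111) and the phospholipid remodelling gene Lpcat3 (2.41, adjusted p = 2.32e-05) joined them. The count was 2 without any of the wild type replicates or transgenic replicate 3. Macrophage markers had a median log2 fold change of 0.75 over 6 arrays, with 1 of 14 higher there and 8 of 14 without transgenic replicate 2. Their summed signals were 19492 to 22997 in wild type and 32606 to 44467 in transgenic fat. Among transgenic mice, replicate 2 had the lowest sum of these markers (32606) and of the LXR targets (47333). Abca1, Abcg1 and Cd5l are also expressed in macrophages, but these genes read highest on replicate 2 (6901, 2737.5 and 270.8). The part of macrophage RNA in the list was not tested.

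Of 15 tested genes listed as targets of PPARα and PPARδ, 7 rose, 0 fell and 8 were not called, with a median of 1.06. Of all genes, 2.23% were called higher and 1.54% lower over 6 arrays, and 8.04% and 7.33% without transgenic replicate 2. Which receptor acts on these genes was not tested. Fabp3, a fatty acid binding protein of muscle, had the largest change of the list (82.1-fold, 6.36 ± 0.29 SE, adjusted p = 0.000803). Ehhadh, the bifunctional enzyme of peroxisomal oxidation, rose from 574 ± 238 to 5477 ± 1060 (SD, n = 3; 3.29 ± 0.35 SE, adjusted p = 0.00618). Acot1, an acyl-CoA thioesterase gene, rose by 2.53 and Pdk4, a kinase that spares glucose, by 2.13, with adjusted p up to 0.0680 and 0.143 without wild type replicate 2. Without transgenic replicate 2 the counts were 11 higher and 1 lower, the latter being Angptl4, an inhibitor of lipoprotein lipase (−0.93, adjusted p = 0.00373). Leaving out wild type replicate 1, 2 or 3 left 2 higher, and leaving out transgenic replicate 3 left 3.

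Targets of the other receptors gave few calls. Of 15 glucocorticoid receptor targets, the metallothionein gene Mt1 rose (1.49 ± 0.15 SE, adjusted p = 0.00565, up to 0.0522 without wild type replicate 2), Zbtb16 fell and 13 were not called, against 0 called without wild type replicate 2. Without transgenic replicate 2, Mt1 and Mt2 were higher and Zbtb16, Cdkn1c and Angptl4 lower. Of 7 tested thyroid hormone targets 0 were called, and without transgenic replicate 2 Me1 (malic enzyme) and Bcl3 were higher and Hr lower. Of 7 retinoic acid targets 0 were called, and without transgenic replicate 2 Rarres2 (chemerin) and Rbp4 were lower, by −0.57 and −0.73. Of 10 oestrogen-related receptor targets 1 rose, Pdk4, which the PPAR list also holds, and this call was lost without any of the wild type replicates or transgenic replicate 3. Of 10 steroid receptor targets 0 were called, and the chemokine gene Cxcl12 was higher without transgenic replicate 2 (1.06, adjusted p = 0.0114).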

How the data were processed

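Total RNA of 6 fat pads was hybridised to Affymetrix MOE430v2.0 arrays, 1 mouse each. The deposited values are MAS5 signal intensities on a linear scale, per the submitters' processing notes; the sources used here state neither the MAS5 version nor a scaling target or detection calls. Of 45101 probe sets, 34958 pair with 1 gene symbol in the platform annotation, 932 with several and 9211 with none. Current RefSeq names changed 0 member names.

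Signals were tested as log2(signal + 16), without further normalization, in R 4.3.3 with limma 3.58.1 (lmFit, eBayes with trend, two-sided). The 64 control probe sets and the dimmest 40% of the rest were left out, leaving 27023, with Benjamini-Hochberg adjustment over all of these. When an array was left out, the same probe sets were tested. The fit was checked on simulated data whose spread was taken without transgenic replicate 2. That check therefore does not cover a comparison that holds such an array. Members, lists, alternatives and the rule for named genes were chosen with earlier results of these data known. By that rule, members called in either comparison, or expressed without overlap between groups, are given in full, and up to 4 called genes of each list. Other genes and probe sets were named after their values were seen. The mice are separate animals, and the depth of an array is not defined. There are 0 columns of other samples.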

Additional observations from a re-analysis of the deposited data

How the results depend on the processing

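The count of called probe sets was 802. It was 3359 with array weights, 341 with the replicate number as a replicate block, 4976 with quantile normalization and transgenic replicate 2 left out, and 141 to 3565 with each array left out in turn. Same-numbered mice showed no shared deviation (correlations −0.37, 0.09 and −0.05, the second with the array that stands apart), and no label says that the numbers mark litters, so whether they pair the animals is not known. Under the block the Thra probe set had an adjusted p of 0.0585. Receptors called higher were 0 in the main comparison, 2 with quantile normalization and replicate 2 left out, and 0 to 2 with 1 array left out. Receptors called lower were 0, with 1 (Esr1) under array weights, 2 with quantile normalization and replicate 2 left out, and 0 to 2 with 1 array left out. Other offsets, filters, scalings, eBayes settings and averaging a gene's probe sets gave 0 receptors called, although averaging moved Thra from −0.26 to −1.46, Rxra from −1.32 to −0.79 and Nr3c1 from −0.42 to −0.67. Directions turned for Nr1h3 without transgenic replicate 1 (−0.30) or 3 (−0.48, from 0.07, with 1.0 without replicate 2), for Ppard with quantile normalization (0.0192), array weights (0.66), no replicate 2 (0.79, the range with 1 array left out being −0.71 to 0.79), and quantile normalization without replicate 2 (0.78, from −0.18), and for the mean of all Nr2f2 probe sets (−0.15, from 0.13). The cause was not tested. Over all tested probe sets the median log2 fold change moved from −0.09 to 0.03 with quantile normalization, when 17 of 30 tested receptors were below 0. The receptors over 100 numbered 19, and 9 when every probe set of the gene had to pass. With a threshold of 50 the count was 28, and with 200 it was 14.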

Other observations

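Some, but not all, probe sets of Nr4a2, the immediate early receptor gene Nurr1, that were left out of the test as dim were lower in every transgenic mouse. On 1447863_s_at it read 73.6, 44.6 and 65.1 in wild type and 7.8, 6.4 and 13.6 in transgenic mice. With no filter on dim probe sets the log2 fold change was −1.60 (limma, adjusted p = 0.0363), and the adjusted p was 0.0316 without transgenic replicate 2. On 1455034_at the signals were 42.0, 44.5 and 42.5 against 18.4, 26.1 and 12.8, also without overlap (adjusted p = 0.227). Another left-out probe set, 1433423_at, went the other way, at 13, 30.5 and 58.5 against 38.3, 37.1 and 42.8 (0.25, adjusted p = 0.812 with no filter). The brightest probe set of the gene overlapped between groups, at 131, 71.0 and 93.7 against 54.8, 47.8 and 92.6. The other tested ones, 1450750_a_at and 1433422_at, also overlapped and were not called (adjusted p = 0.651 and 0.869). Signals under 16 are near background, and the lower probe sets were singled out after their values were seen.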
